A study of Mus musculus with 38 samples.

Results

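The 7 genes Hs3st4, Cdh18, Tmem132d, Hecw2, Sgcz, Pak7 and Pde10a were described in nuclei and tissue of mouse brain after loss of Trim28. They were chosen because their level in excitatory nuclei of the cortex differed between Emx1-Cre knockout (KO) and control animals, 7 of the 27998 genes in the nuclei matrices. That contrast is therefore given here as a description, with no p-value for these genes in excitatory nuclei, in their layer subtypes or in the bulk cortex of the same animals. They carry the label of adhesion and synaptic genes that were lower in excitatory nuclei, but Pde10a went against it and was higher.

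The data were 5 bulk RNA-seq experiments and 1 single-nucleus experiment, and each bulk library held between 8790346 and 25345083 counted reads. In the Emx1-Cre experiment, the cortex of mice aged 3 months was collected. KO animals (60, 73 and 76) were Emx1-Cre (+/-) with both copies of Trim28-fl, and control animals (64, 65 and 77) were also Emx1-Cre (+/-) but had 1 copy, so by the labels and the study's methods controls carried Cre and 1 excised allele too, though the study in another place calls the bulk controls Cre-negative. The breeding males were also gtRosa (+/-). Emx1-Cre acts from development onward in cortical excitatory neurons and in part of the glia, so the loss was not made in the adult. All 6 animals gave bulk libraries, and 60, 73, 64 and 65 gave 10x nuclei as well, so that only animals 76 and 77 are new to the members in the bulk cortex. Neural progenitor cells (NPCs) came from the forebrain of Rosa26-Cas9 knock-in embryos and received lentiviral guides to Trim28 exon 3, 4 or 13 (2 libraries each, 6 KO) or to lacZ (2 controls), with sorting of RFP-positive cells after 10 days. In adult Cas9-GFP mice and in Stop-Cas9-GFP mice that also received Synapsin-Cre, AAV guides with a nuclear RFP were injected into the striatum and RFP-positive neuronal nuclei were sorted 2 months later, with 4 KO libraries and 1 lacZ control in each experiment. Trim28-flox mice, (+/-) or (+/+), received AAVs for Cre or nuclear GFP driven by Synapsin in the adult forebrain, with sorting of neuronal nuclei after 2 months, 4 libraries labelled KO and 4 labelled control. The study describes KO as flox (+/+) with Cre, and the labels do not say which genotype and vector the control libraries had. The study describes its NPC groups as biological replicates, and the labels do not say which libraries share a culture.

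Trim28, the co-repressor that KRAB zinc finger proteins bring to chromatin, was read first as a check on the labels. In NPCs it measured 157 and 204 CPM (read counts scaled to the library total times its TMM factor) in controls and 36.8 to 73.5 in the 6 KO libraries (log2 fold change -1.82, edgeR quasi-likelihood adjusted p = 0.031). In the Emx1-Cre cortex it measured 18.95 to 21.4 CPM in controls and 6.07 to 8.86 in KO (log2 fold change -1.39, edgeR adjusted p = 0.000378). Both groups were apart in both experiments. In Cas9-GFP neurons it was at 143 CPM in the control and 93.7 to 105 in KO (log2 fold change -0.51, edgeR adjusted p = 0.415). In Stop-Cas9-GFP neurons the control, at 105 CPM, lay inside the KO range of 88.4 to 127. In Trim28-flox neurons the libraries labelled control had 25.6 to 31.6 CPM and the libraries labelled KO had 130 to 146 (log2 fold change 2.26, edgeR adjusted p = 2.74e-06). This went against the label, and any direction in that experiment is given by label only. Trim28 gave only 160 to 190 unique molecular identifiers (UMIs) per animal over all excitatory nuclei, 0.0856 and 0.0700 per 10000 UMIs in controls and 0.0636 and 0.0673 in KO, and so checked little there.

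The members have different roles at the neuronal surface and beneath it. Cdh18 is a classical type II cadherin, a calcium-dependent adhesion molecule, Tmem132d is a single-pass membrane protein of a small family, and Sgcz is zeta-sarcoglycan, a subunit of the complex that joins dystrophin to the membrane. Hs3st4 is a heparan sulfate 3-O-sulfotransferase, which adds sulfate to the sugar chains of cell surface proteoglycans, and in cortex it is known from layer 6 neurons. Hecw2 is a HECT-type ubiquitin ligase, Pak7 (PAK5) is a p21-activated kinase downstream of small GTPases, and Pde10a is a cyclic nucleotide phosphodiesterase best known from striatal projection neurons. Layers of the cortex hold excitatory neurons with different targets, and Otof and Ccbe1 mark upper layers, Rorb middle layers, and Foxp2, Syt6 and Cpa6 layer 6.

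In the GRCm38 annotation all 7 are long genes. Hs3st4 lies at chr7:123982869-124398989 (plus strand), Cdh18 at chr15:22549022-23474418 (plus), Tmem132d at chr5:127781630-128433077 (minus) and Hecw2 at chr1:53806876-54195168 (minus). Sgcz lies at chr8:37522298-38661508 (minus), Pak7 at chr2:136081104-136387967 (minus) and Pde10a at chr17:8525372-8986648 (plus). Their spans of 307 to 1139 kb put every one of them above 96.5% of the genes tested in excitatory nuclei, whose median span was 25.8 kb. Their exons together measured 3.03 kb (Sgcz) to 12.9 kb (Hecw2), so most of each gene is intron, which the nuclei counts included and the bulk counts did not.

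Promoter sequences in RefSeq (GRCm38.p6; 250 bases before to 50 after a start) matched 5 of the 7 members, with 6 promoters in all, and did not hold Tmem132d or Sgcz. Members that were lower in KO differed in the CG content of their promoters, and 4 promoters are shown for that reason, with CG dinucleotides in capitals. They are chr7:123982578-123982877 (plus strand) for Hs3st4, chr1:54194985-54195284 (minus) for Hecw2, chr2:136387918-136388217 (minus) for Pak7 and chr17:8801495-8801794 (plus) for Pde10a.
Hs3st4 promoter: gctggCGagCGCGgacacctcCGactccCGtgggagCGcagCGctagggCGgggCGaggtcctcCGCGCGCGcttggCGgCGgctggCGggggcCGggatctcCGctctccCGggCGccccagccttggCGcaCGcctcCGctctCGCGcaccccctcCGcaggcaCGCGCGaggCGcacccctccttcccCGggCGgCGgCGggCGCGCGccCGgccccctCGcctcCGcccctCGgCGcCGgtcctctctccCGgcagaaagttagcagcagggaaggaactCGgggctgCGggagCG
Hecw2 promoter: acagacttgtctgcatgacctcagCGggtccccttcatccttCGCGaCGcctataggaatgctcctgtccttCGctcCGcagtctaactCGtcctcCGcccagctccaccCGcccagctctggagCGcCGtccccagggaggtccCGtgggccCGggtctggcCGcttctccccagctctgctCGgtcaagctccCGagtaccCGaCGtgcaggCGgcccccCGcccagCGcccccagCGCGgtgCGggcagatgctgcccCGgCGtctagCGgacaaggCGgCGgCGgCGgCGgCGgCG
Pak7 promoter: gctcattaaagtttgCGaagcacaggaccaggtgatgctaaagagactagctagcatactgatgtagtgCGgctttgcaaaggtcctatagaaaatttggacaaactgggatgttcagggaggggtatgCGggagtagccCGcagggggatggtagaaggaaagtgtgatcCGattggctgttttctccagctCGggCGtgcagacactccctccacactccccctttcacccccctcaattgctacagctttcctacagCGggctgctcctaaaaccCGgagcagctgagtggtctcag
Pde10a promoter: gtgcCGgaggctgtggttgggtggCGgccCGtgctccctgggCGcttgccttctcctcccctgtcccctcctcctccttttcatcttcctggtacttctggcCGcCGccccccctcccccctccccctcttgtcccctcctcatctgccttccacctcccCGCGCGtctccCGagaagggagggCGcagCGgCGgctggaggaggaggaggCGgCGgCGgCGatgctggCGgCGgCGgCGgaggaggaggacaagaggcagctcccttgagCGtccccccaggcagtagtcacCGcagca
The Hs3st4 promoter held 47 CG dinucleotides, more than 98.6% of the 32851 mouse promoters of that length (median 7), and that of Hecw2 held 34, more than 92.3%. Pak7, which moved the same way, held 9 and Cdh18 held 12. Pde10a, which moved the other way, held 23 in the promoter shown and 5 in its second one. The letters GGGCGG, searched on both strands, occurred in 4 of the 6 promoters (Hs3st4, Hecw2 and both of Pde10a) and in 35.7% of all promoters, and CCAAT occurred in 3 (Pak7, Cdh18 and 1 of Pde10a) and in 37.4% of all. TATAAA (13.6% of all) and TGACG (20.8%) occurred in none of the 6. The Cdh18 and Pde10a starts in RefSeq lie inside the span that the deposited annotation gives these genes. A match of letters is a description and not a bound site.

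The 4 nuclei matrices held 14296 barcodes (3496 and 3130 in control animals 64 and 65, 3799 and 3871 in KO animals 60 and 73), and any pair of libraries shared 0 to 20 barcodes. After a filter on detected genes, 13671 nuclei were left, and 8174 of them fell in clusters with excitatory markers, 1735 and 1843 in controls and 2253 and 2343 in KO. Excitatory nuclei had a median of 11846 and 11134 UMIs in controls and 10909 and 10397 in KO. Slc17a7, the vesicular glutamate transporter that marks excitatory neurons, was at 2.17 UMIs per 10000 in control and 2.61 in KO excitatory nuclei (means of 2 animals). Excitatory nuclei were 50.9% and 60.1% of all nuclei in controls and 62.4% and 65.3% in KO, while oligodendrocytes were 16.7% and 11.2% in controls and 6.46% and 4.54% in KO, so the mix of classes moved as well.

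Across all excitatory nuclei, 6 members were lower in both KO animals than in both controls and Pde10a was higher. Cdh18 went from 7.39 and 7.18 UMIs per 10000 in controls to 3.06 and 2.26 in KO. Tmem132d went from 6.97 and 8.09 to 3.41 and 3.54. Sgcz went from 22.5 and 24.0 to 16.3 and 14.1. These 3 membrane proteins thus had log2 ratios of KO to control (of the group means) of -1.45, -1.11 and -0.62. Of the enzymes, Hs3st4 went from 6.94 and 7.23 to 3.71 and 2.82, Hecw2 from 7.77 and 8.61 to 4.70 and 4.60, and Pak7 from 7.62 and 7.39 to 4.52 and 3.72 UMIs per 10000. Their log2 ratios were -1.12, -0.82 and -0.87. Pde10a went from 9.99 and 8.24 up to 12.6 and 16.4, a log2 ratio of 0.67. In the edgeR quasi-likelihood fit over 16247 genes, 1166 genes were called at an adjusted p under 0.05 (620 higher and 546 lower in KO), 7.18% of those tested, and 6 of the 7 members were among them, all lower. In 25.6% of genes both KO animals lay below both controls and in 34.4% both lay above. The number of genes called was 2477 without control 64, 86 without control 65, 340 without KO 60 and 149 without KO 73, so the 4 animals weighed unequally on it. With 1 animal of a group left out, here and in every other class of nuclei, the lone animal left in that group is assumed to vary like those of the other group. Since the members were chosen on this contrast, nothing is read from these counts.

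A lower sum over excitatory nuclei can come from fewer nuclei of the layer that uses the gene or from a lower level in each nucleus. To set these apart, the UMIs of each marker panel were divided by the panel's mean over all excitatory nuclei of both groups. Nuclei were assigned to upper layers, middle layers or layer 6 where the panel leading by this scaled value had at least 2 UMIs. It also had to have at least 2 times the scaled value of the next panel. Layer 6 nuclei were 16.8% and 16.2% of excitatory nuclei in controls (291 and 298 nuclei) and 10.7% and 6.32% in KO (240 and 148). Upper-layer nuclei were 16.7% and 16.5% in controls and 24.5% and 19.7% in KO, and middle-layer nuclei 33.0% and 32.0% in controls and 25.2% and 30.7% in KO. Each subtype's groups were apart under this rule, but with at least 5 UMIs and 4 times the next panel's scaled value the upper-layer groups overlapped. Upper-layer nuclei were then 5.99% and 4.94% in controls and 6.79% and 3.97% in KO, a KO minus control difference of -0.0858 percentage points. Moreover, 2 animals against 2 cannot give a two-sided exact permutation p below 0.333, and all 3 subtypes gave 0.333 (0.333 after Benjamini-Hochberg adjustment over the 3). Nuclei without an assignment made up 33.6% and 35.3% in controls and 39.7% and 43.2% in KO. Of the 8174 nuclei, 34.4% had under 2 UMIs of their leading panel, 4.00% had 2 or more but led by less than 2 times, and 4.76% led by 2 to 4 times.

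**Figure D1:**
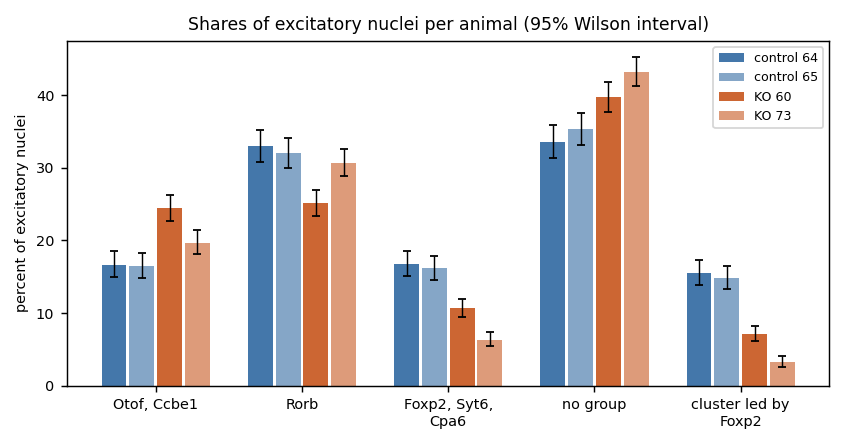
Share of excitatory nuclei (percent, y axis) in each layer subtype, named by its markers, in no subtype and in cluster 4 (led by Foxp2), by animal, with 95% Wilson intervals that cover counting error only. Layer 6 nuclei lay at 16.8% and 16.2% in controls against 10.7% and 6.32% in KO.

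The layer markers themselves moved with these shares. Foxp2 was at 0.910 UMIs per 10000 excitatory UMIs in control and 0.385 in KO, Syt6 at 0.167 and 0.0904, and Cpa6 at 0.298 and 0.112 (means of 2 animals). Rorb was at 5.23 and 3.14. Of the upper-layer markers, Otof was at 0.202 and 0.263 and Ccbe1 at 0.495 and 0.607. A lower level of marker RNA in a nucleus also moves it out of the subtype, so a lower share of marker-defined nuclei and a lower marker level per nucleus cannot be told apart from these counts. Clusters made on all genes other than the members gave a second definition. Cluster 4, whose leading genes included Foxp2, Syt6, Tle4 and Cpa6 as well as Hs3st4 and Cdh18, held 15.5% and 14.8% of excitatory nuclei in controls and 7.15% and 3.24% in KO, and cluster 1, led by Ccbe1 and Otof, held 30.5% and 30.8% in controls and 39.6% and 46.1% in KO. In the bulk cortex, where whole tissue was counted, the summed CPM of Foxp2, Syt6 and Cpa6 was 31.7, 41.8 and 35.1 in controls and 37.2, 31.5 and 41.3 in KO, and the groups overlapped. That of the upper-layer markers Otof and Ccbe1 was 11.4, 17.2 and 17.7 in controls and 23.2, 20.9 and 24.5 in KO, with the groups apart, and Rorb was at 111, 121 and 129 in controls and 95.6, 127 and 77.2 in KO.

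Hs3st4 followed the layers most closely. In layer 6 nuclei it had 27.2 and 25.9 UMIs per 10000 in controls and 19.5 and 14.3 in KO, against 0.238 and 0.348 in upper-layer nuclei of controls and 0.259 and 0.169 in KO. Middle-layer nuclei had 4.62 and 7.01 in controls and 4.06 and 4.42 in KO. Both KO animals were thus below both controls in layer 6 and in middle layers, by little in the latter, and in upper layers 1 was inside the control range and 1 below it. In cluster 4 the values were 33.2 and 31.6 in controls and 29.8 and 29.1 in KO, a smaller gap than in the layer 6 nuclei defined by markers. Of those 977 nuclei, 705 lay in cluster 4, 92 in cluster 11, 87 in cluster 10 and 67 in cluster 0. Cluster 4 held 269 and 273 nuclei in controls and 161 and 76 in KO. Layer 6 nuclei numbered 291 and 298 in controls and 240 and 148 in KO. A larger share of them thus lay outside cluster 4 in KO than in controls. This bears on the layer 6 values of all members, and its part in them was not tested.

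Of the 3 layers, Cdh18 was also highest in layer 6, and it was lower in every subtype. Layer 6 nuclei had 22.8 and 24.8 UMIs per 10000 in controls and 12.6 and 12.02 in KO. Upper-layer nuclei had 2.28 and 3.21 in controls and 1.62 and 1.33 in KO, and middle-layer nuclei 3.12 and 3.08 in controls and 1.49 and 1.38 in KO. No KO value reached a control value in any of the 3 subtypes. In cluster 4, with 28.9 and 29.0 in controls and 17.7 and 21.6 in KO, the gap was smaller than in the layer 6 nuclei defined by markers (log2 ratio -0.56 against -0.95). As given above, a larger share of layer 6 nuclei lay outside cluster 4 in KO than in controls.

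The other 5 members were spread over the layers. Tmem132d was highest in middle layers, at 8.80 and 9.96 UMIs per 10000 in controls and 4.46 and 4.51 in KO. It had 6.47 and 8.36 in upper layers of controls and 3.54 and 3.26 in KO, and 4.82 and 4.84 in layer 6 of controls and 2.24 and 2.40 in KO. In each layer KO nuclei thus held well under the control level. Hecw2 measured 7.20 and 8.90 in upper layers of controls against 4.53 and 4.36 in KO, and 8.10 and 8.48 against 4.98 and 4.74 in middle layers. In layer 6 it measured 8.86 and 10.0 in controls and 5.19 and 5.38 in KO. This ubiquitin ligase thus differed little between the 3 layers.

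Pak7 measured 6.63 and 6.66 UMIs per 10000 in upper layers of controls and 3.92 and 2.87 in KO, and 9.35 and 8.81 against 5.95 and 5.05 in middle layers. In layer 6 it measured 8.76 and 8.54 in controls and 5.21 and 4.10 in KO. Sgcz measured 18.1 and 21.7 against 14.4 and 11.8 in upper layers and 24.1 and 23.5 against 15.3 and 13.6 in middle layers. Its gap was narrower in layer 6, with 20.2 and 19.4 in controls and 16.2 and 17.2 in KO. Sgcz was high in cluster 10, whose leading genes include Bcl11b, at 41.8 and 43.5 in controls and 29.6 and 28.2 in KO. Cluster 11, led by Tshz2, was small, with 67 and 45 nuclei in controls and 68 and 47 in KO. By markers, 92 of its nuclei fell in layer 6, 7 in middle layers and 128 in no subtype. In cluster 11 Hecw2 was at 5.10 and 5.66 in controls and 5.86 and 5.496 in KO, with the groups overlapping, while Sgcz went from 12.01 and 11.8 to 4.16 and 2.59. Cdh18 was as high there as in cluster 4, at 27.6 and 36.2 in controls and 18.8 and 22.5 in KO. Hs3st4 in cluster 11 was at 19.9 and 21.6 in controls and 21.6 and 16.4 in KO, with the groups overlapping. Pde10a was higher in each layer, going from 8.74 and 7.66 to 11.01 and 13.3 in upper layers, from 12.1 and 8.12 to 14.5 and 18.9 in middle layers, and from 8.32 and 8.60 to 12.8 and 17.7 in layer 6.

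**Figure D2:**
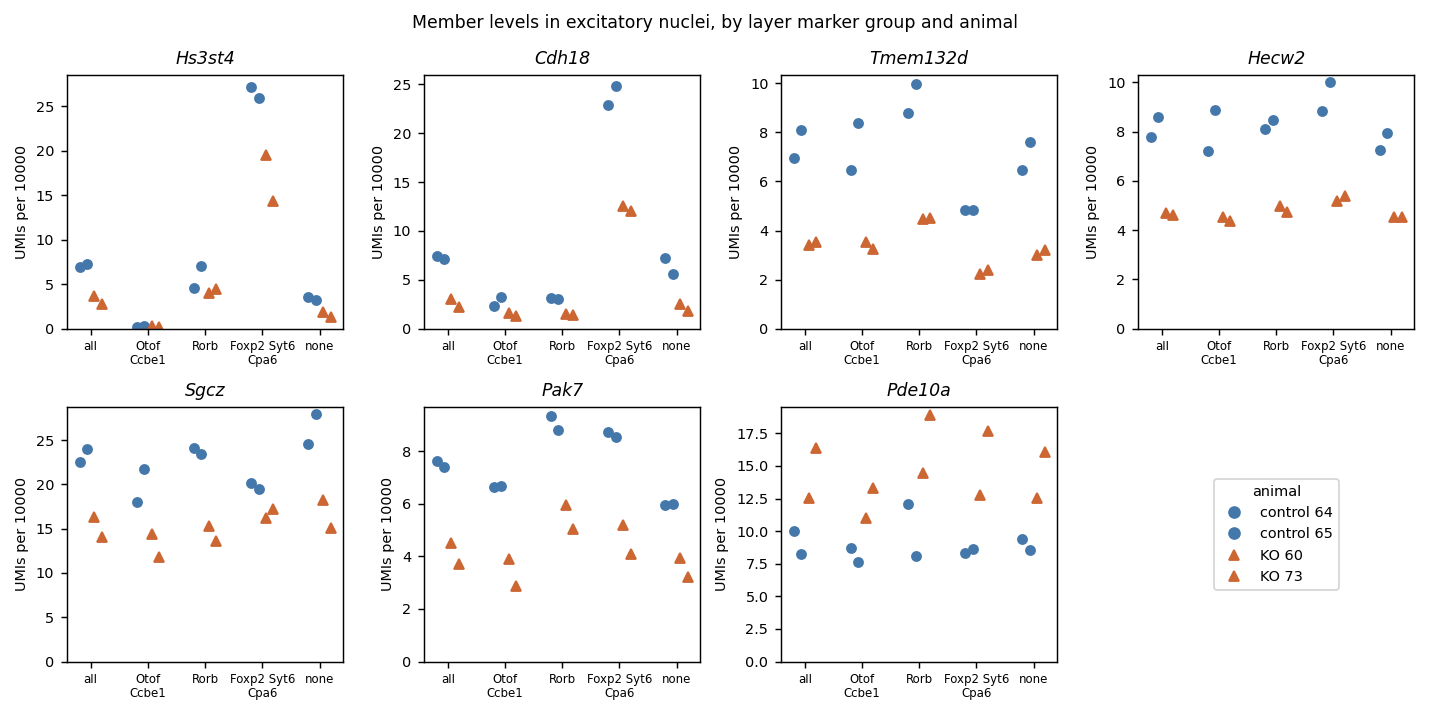
UMIs per 10000 (y axis) of each member in all excitatory nuclei, in each layer subtype, named by its markers, and in nuclei of no subtype, with 1 point per animal for control (64, 65) and KO (60, 73). Hs3st4 and Cdh18 were highest in layer 6, and in every subtype both KO animals lay above both controls for Pde10a and below both for Cdh18, Tmem132d, Hecw2, Sgcz and Pak7.

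The 2 components were then computed for each member by giving KO the subtype shares of controls or the levels of controls. Nuclei of no subtype counted as 1 more group, and shares here were of UMIs and not of nuclei. A change of layers among nuclei of no subtype, or within a cluster, enters the levels. Its part was not tested. With subtypes from marker UMIs, the log2 ratio of Hs3st4, -1.12 as counted, was -0.46 when only the shares changed and -0.65 when only the levels changed. Cdh18, -1.45 as counted, gave -0.26 from shares and -1.12 from levels. For the other 5 the shares alone gave between -0.07 (Pak7) and 0.01 (Sgcz). With shares held at the control mix, Tmem132d stood at -1.11, Hecw2 at -0.79, Sgcz at -0.61, Pak7 at -0.80 and Pde10a at 0.70. With the clusters in place of marker UMIs, the split of Hs3st4 turned round, at -0.84 from shares and -0.22 from levels, and Cdh18 stood at -0.63 and -0.73. The other members kept their split under the clusters, from -1.15 (Tmem132d) to 0.72 (Pde10a) at the control mix and from -0.06 to 0.05 from shares.

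**Figure D3:**
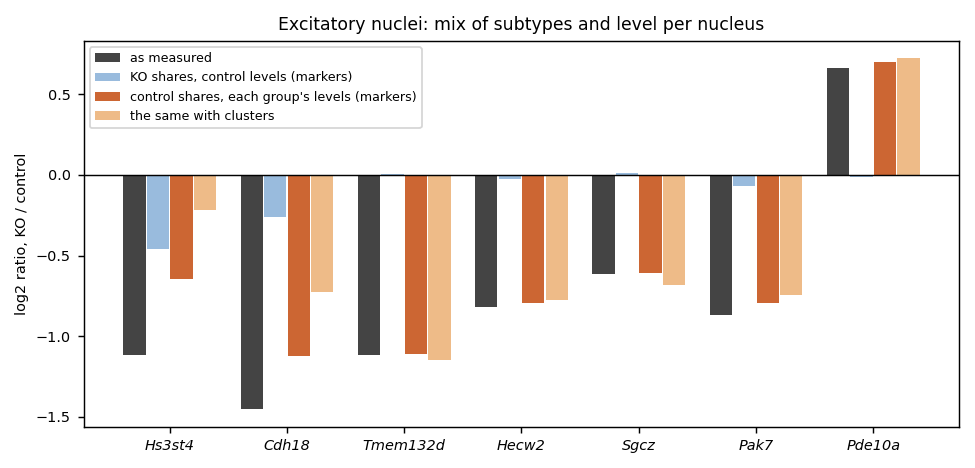
Log2 ratio of KO to control in excitatory nuclei (y axis) for each member as counted. Further bars have only the shares changed (marker UMIs) or only the levels changed (marker UMIs, then clusters). Nuclei of no subtype counted as 1 more group under marker UMIs. The bar for shares was -0.46 for Hs3st4 and -0.26 for Cdh18 and lay between -0.07 and 0.01 for the other 5 members, and the bar for levels of Hs3st4 shrank from -0.65 to -0.22 with clusters.

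The share of excitatory nuclei with at least 1 UMI went the same way once each nucleus was thinned to 2000 UMIs, which left out 11 and 14 nuclei of controls and 6 and 4 of KO. Tmem132d was seen in 68.2% and 70.9% of control nuclei and 44.5% and 44.2% of KO nuclei. Cdh18 was seen in 46.8% and 45.2% against 32.0% and 25.9%, and Hs3st4 in 42.3% and 44.9% against 30.7% and 28.7%. Hecw2, Sgcz and Pak7 were also seen in fewer KO nuclei, with Sgcz at 89.7% and 88.0% against 81.8% and 76.1%, while Pde10a went from 79.8% and 76.8% to 87.7% and 93.2%. Without thinning, Hs3st4 had a UMI in 62.5% and 64.1% of control and 52.4% and 49.0% of KO excitatory nuclei. In microglia, which should lack it, the share was 2.62% and 12.2% in controls and 3.57% and 2.46% in KO, with a median of 1570 to 1969 UMIs per nucleus.

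Genes of long span, as all 7 members are, were on the whole lower in KO nuclei. The median log2 fold change in excitatory nuclei went from 0.29 for genes under 10 kb to -0.26 for genes over 500 kb. In inhibitory nuclei it went from 0.30 to -0.20, in astrocytes from 0.25 to -0.33 and in oligodendrocytes from 0.24 to -0.49. Genes over 200 kb took 39.5% and 42.03% of excitatory UMIs in controls and 35.7% and 35.6% in KO. In inhibitory nuclei they took 37.5% and 40.7% in controls and 35.5% and 34.6% in KO. The same drift was nearly absent from exonic counts of the bulk cortex, where the medians ran from 0.03 to -0.05. Among the 1020 genes over 200 kb in excitatory nuclei, whose median was -0.24, 0.588% lay below Cdh18, 1.76% below Hs3st4, 1.86% below Tmem132d, 4.31% below Pak7, 5.39% below Hecw2 and 10.0% below Sgcz, and 98.4% lay below Pde10a. The members were chosen on this excitatory contrast, so nothing is read from these ranks. The part of the drift with span in the members was not tested.

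**Figure D4:**
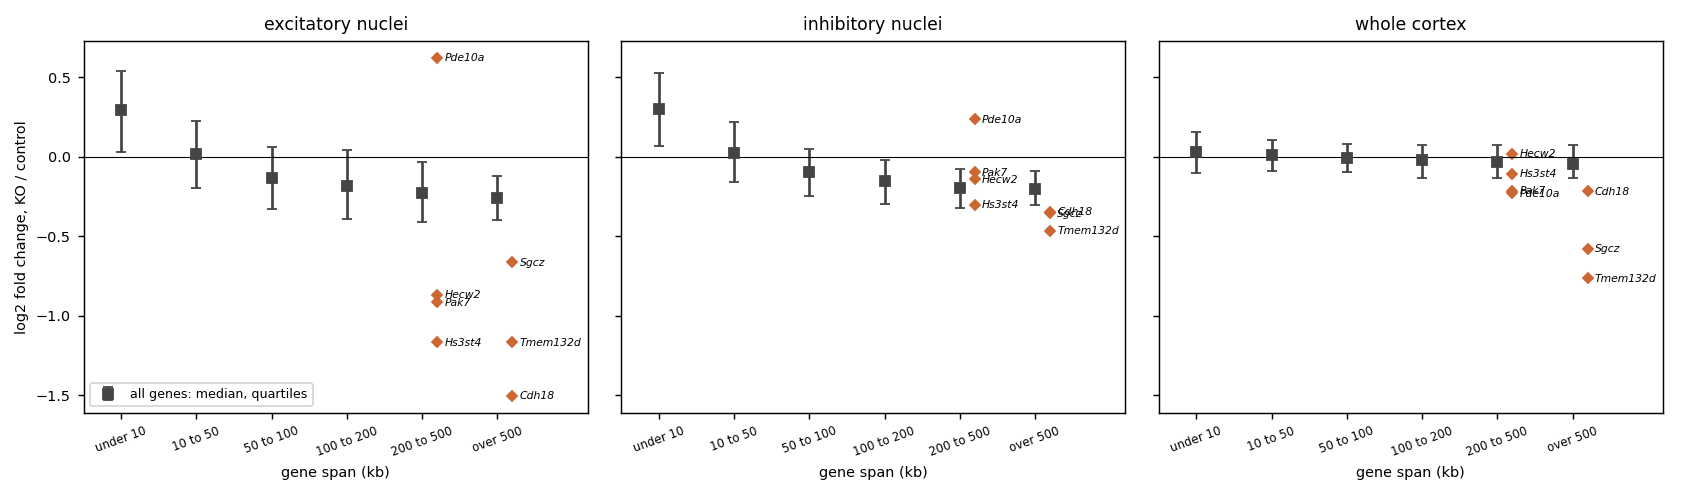
Median log2 fold change, KO over control (y axis, squares, with bars for the quartiles), of all tested genes in bins of gene span (x axis, kb) in excitatory nuclei, inhibitory nuclei and bulk cortex, with the members as diamonds. The excitatory medians go from 0.29 to -0.26 with span and the bulk medians stay between 0.03 and -0.05.

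The other cell classes of the same animals were tested one by one, and no difference from excitatory nuclei was tested. In inhibitory nuclei (404 and 367 in controls, 466 and 493 in KO) 0 of 7 members and 0 of 12767 genes (0%) passed the edgeR quasi-likelihood test, 1834 genes had an unadjusted p under 0.05, and DESeq2 called 18. Tmem132d measured 3.38 and 3.94 UMIs per 10000 in controls and 2.81 and 2.54 in KO (edgeR adjusted p = 0.202), and Sgcz 10.4 and 10.4 against 7.22 and 9.22 (edgeR adjusted p = 0.284). Pde10a measured 8.64 and 7.65 against 8.36 and 10.96 (edgeR adjusted p = 0.465), and its groups overlapped. Both KO animals lay below both controls for Tmem132d and Sgcz and also for Cdh18 (3.38 and 4.19 against 2.94 and 3.08), Hecw2 (4.49 and 4.73 against 4.14 and 4.29) and Pak7 (2.33 and 2.27 against 2.16 and 2.17), as was the case for 22.2% of all genes tested. The log2 fold changes of the 7 had the sign seen in excitatory nuclei. In inhibitory nuclei 84.8% of genes of 200 to 500 kb and 87.4% of longer ones were also lower. Among the 957 genes over 200 kb, whose median was -0.197, 62.4% lay below Hecw2 and 71.3% below Pak7. For Hs3st4 the share was 28.004%, for Cdh18 20.5%, for Sgcz 20.1%, for Tmem132d 10.97% and for Pde10a 95.9%. Whether span accounts for the signs of the members was not tested. The fit depended on which control was kept. With 65 as the lone control 5 members passed (Hs3st4, Cdh18, Tmem132d and Sgcz lower, Pde10a higher) and 2884 genes were called, and with 64 as the lone control Tmem132d and Sgcz passed and 506 genes were called, and the spread then came from the KO animals.

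In astrocytes, which held far less of these genes than neurons, Pde10a was the 1 member called. It was at 0.847 and 0.833 UMIs per 10000 in controls (111 and 67 UMIs) and 3.18 and 4.54 in KO (390 and 543 UMIs). The groups were apart, with a log2 fold change of 2.19 ± 0.19 (SE, 2 animals each, edgeR quasi-likelihood adjusted p = 4.82e-05), while 2.26% of 10314 genes were called. The ratio of levels, from UMIs summed over animals and scaled by total UMIs, was 4.58 (95% interval 3.90 to 5.405, counting error only). The log2 fold change stayed between 1.92 and 2.43 with each animal left out. Without control 64, Hs3st4, Tmem132d, Hecw2, Sgcz and Pak7 were also called, as lower, in astrocytes, but against control 65 alone, which had the higher level of each of these 5 (Sgcz at 1.74 against 0.611), with the spread taken from the KO animals. In microglia Pde10a was at 0.424 and 1.01 in controls and 0.452 and 0.564 in KO, and the part of free RNA in the values of glia was not tested. In oligodendrocytes Pde10a was at 0.472 and 0.913 in controls and 0.423 and 0.300 in KO (edgeR adjusted p = 0.226, or 0.000958 without control 64), near the level in microglia.

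In oligodendrocytes 2.98% of 8041 genes were called, among them Hs3st4 and Sgcz as lower. Hs3st4 had 31 and 51 UMIs in controls and 2 and 3 in KO, a ratio of levels of 0.151 (95% interval 0.0479 to 0.368, log2 fold change -2.81, edgeR adjusted p = 0.0154). Its level of 0.209 and 0.575 UMIs per 10000 in controls and 0.0384 and 0.0691 in KO lay near that of microglia, at 0.127 and 0.758 in controls and 0.243 and 0.130 in KO. The call was lost with DESeq2 (adjusted p = 0.107) and with edgeR without control 65 (0.272), KO 60 (0.0710) or KO 73 (0.0777). Sgcz was at 1.02 and 2.55 UMIs per 10000 in controls and 0.769 and 0.415 in KO (log2 fold change -1.55, edgeR adjusted p = 0.0120), and microglia had a like pattern, at 1.06 and 2.87 in controls and 0.939 and 0.607 in KO. Its call was lost with DESeq2 (adjusted p = 0.690), without nuclei that hold markers of other classes (edgeR adjusted p = 0.0755) and without KO 73 (0.250). Hecw2 and Pak7 were well counted in oligodendrocytes and were not called there. Hecw2 measured 8.13 and 8.79 UMIs per 10000 in controls and 9.23 and 8.87 in KO (edgeR adjusted p = 0.908), and Pak7 12.1 and 14.1 in controls and 12.8 and 12.3 in KO (edgeR adjusted p = 0.906).

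In oligodendrocyte precursors (OPCs), where 0.299% of 6682 genes were called, Hs3st4 had 66 and 18 UMIs in controls and 2 and 3 in KO. Scaled by total UMIs, that is a ratio of levels of 0.0719 (95% interval 0.0228 to 0.175, log2 fold change -3.72, edgeR adjusted p = 0.00809). The call was lost without control 64. The other 6 were not called in OPCs, Tmem132d among them at 7.32 and 7.16 UMIs per 10000 in controls and 5.61 and 4.84 in KO. In microglia 5 members passed the filter and 0 were called, beside 0 of 6087 genes (0%, with 430 at an unadjusted p under 0.05 by edgeR and 0 called by DESeq2), while without KO 60 Hecw2, Sgcz and Pak7 passed as lower on KO 73 alone, which held 1 UMI of Hecw2, 14 of Sgcz and 2 of Pak7.

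In the bulk Emx1-Cre cortex, fewer cells of a type and less RNA per cell cannot be told apart. Of the 7 members, Tmem132d was called lower by edgeR and 0 were called higher, beside 1.33% of 16271 genes called (216 genes, 344 without KO 76, 104 without control 77, 111 without control 64 and 133 without control 65), and nothing is read from this count because the animals are largely those of the nuclei. Tmem132d was at 62.8, 59.6 and 63.3 CPM in control animals 64, 65 and 77 and at 36.1, 41.1 and 31.7 in KO animals 60, 73 and 76. The groups were far apart, with a log2 fold change of -0.77 ± 0.10 (SE, n = 3 each), and animals 77 and 76, which gave no nuclei, stood at 63.3 and 31.7. With each animal left out the log2 fold change lay between -0.87 and -0.68. Sgcz was at 3.77, 4.56 and 3.06 CPM in controls and 2.16, 2.94 and 2.45 in KO, 31 to 104 counts per library, and its groups were also apart (log2 fold change -0.58 ± 0.21). KO lay below every control for 7.1% of genes and above every control for 6.81%.

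The other 5 members overlapped between the groups of the bulk cortex. Hs3st4 was at 84.3, 108 and 73.4 CPM in controls and 95.5, 70.1 and 81.3 in KO. Cdh18 was at 20.98, 21.9 and 16.1 against 21.2, 13.5 and 16.1. Hecw2 was at 84.0, 67.5 and 75.7 against 89.6, 75.3 and 65.2, so that neither of these enzymes nor the cadherin moved beyond the spread between animals. Pak7 was at 98.9, 101 and 122 against 97.0, 103 and 77.6, with its lowest value in KO animal 76. Pde10a was at 37.6, 50.02 and 55.3 against 37.5, 34.5 and 50.2, on the lower side of controls where excitatory nuclei had been on the higher side. The log2 fold changes of these 5 ran from -0.23 (Pde10a) to 0.02 (Hecw2). Per kb of exon, control levels in cortex ordered Hs3st4 (27.8 CPM per kb), Pak7 (16.5), Tmem132d (9.55), Hecw2 (5.85), Cdh18 (4.32), Pde10a (3.71) and Sgcz (1.25), and of these only the neighbours Cdh18 and Pde10a differed by less than their spread.

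KO animal 76 stood apart in the bulk cortex. Gm42418, CT010467.1 and Lars2, which overlap ribosomal RNA sequence, took 25.9% of its counts against 0.194% to 0.798% in the other 5 animals, and its 10 most counted genes took 39.9% against 13.1% to 16.2%. Its TMM factor was 0.754, against 1.03 to 1.09 in the others, which raises its CPM above counts scaled by the plain total. Without it the Tmem132d log2 fold change was -0.68. Some marker lists of other cell types also moved in the bulk cortex, while the sums of the excitatory, inhibitory, astrocyte, OPC and microglia lists overlapped between groups. The summed CPM of the oligodendrocyte markers Mbp, Mog, Mag and Mobp (0 of 4 at 0 counts, Mbp or Mobp the most abundant) was 1148, 1199 and 1048 in controls and 852, 951 and 1039 in KO, with the groups apart. That of 5 fibroblast and endothelial markers, led by Flt1, was 112, 110 and 117 in controls and 79.0, 102 and 92.7 in KO, also apart. That of 5 genes listed as progenitor markers, led by Sox2, was 69.3, 65.1 and 67.9 in controls and 74.4, 85.5 and 71.9 in KO. Its groups were apart in the other direction, and which cells of the adult cortex gave these counts was not tested. The part of these counts and markers in the values of Tmem132d, Sgcz and the other members was not tested.

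**Figure D5:**
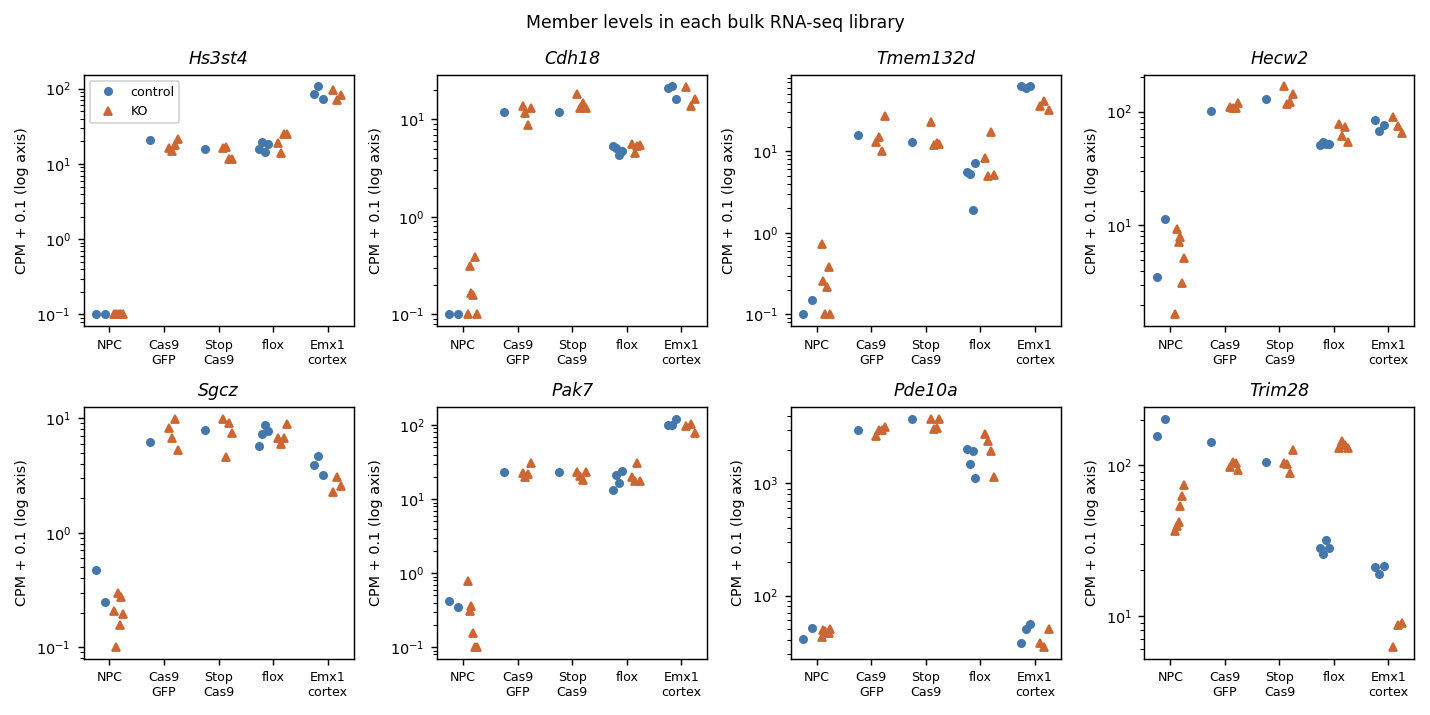
CPM with 0.1 added (y axis, log scale) of each member and of Trim28 in each library of the 5 bulk experiments (x axis), by group as labelled, with 1 point per library. In the Emx1-Cre cortex, Tmem132d and Sgcz were the 2 members whose groups were apart, and in the other 4 experiments no member was called.

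In the other 4 bulk experiments 0 members were called. Background calls were 0.194% of 16469 genes in NPCs, 0.0409% of 17102 in Trim28-flox neurons and 0% in Cas9-GFP and Stop-Cas9-GFP neurons, where 1560 and 459 genes had an unadjusted p under 0.05 by edgeR and DESeq2 called 25 and 1. With 1 control library in each of the Cas9 experiments, that library was assumed to vary like the KO libraries.

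NPCs hold little of these genes. Hs3st4 had 0 counts in all 8 libraries, and Cdh18, Tmem132d, Sgcz and Pak7 had 0 to 13. Hecw2 was at 3.38 and 11.3 CPM in controls and 1.55 to 9.21 in KO (log2 fold change -0.39 ± 0.63, edgeR adjusted p = 1.00). Pde10a was at 40.9 and 50.9 CPM in controls and 42.4 to 50.6 in KO (log2 fold change 0.03 ± 0.14, edgeR adjusted p = 1.00), so its groups overlapped while Trim28 was clearly lower.

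The Cas9 mice were injected into the striatum and the Trim28-flox mice into the forebrain. The 8 markers of striatal projection neurons summed to 3973 to 6450 CPM in these libraries and to 103 to 134 CPM in the cortex, and Pde10a was at 1121 to 3768 CPM. In Cas9-GFP neurons Pde10a was at 2994 CPM in the control and 2649 to 3205 in KO (log2 fold change -0.02 ± 0.14, edgeR adjusted p = 0.983). In Stop-Cas9-GFP neurons it was at 3767 CPM in the control and 3047 to 3768 in KO (edgeR adjusted p = 1.00). Hs3st4 was at 20.5 CPM in the Cas9-GFP control and 15.0 to 21.1 in KO (edgeR adjusted p = 0.837), and Tmem132d at 15.9 CPM and 10.1 to 27.4 (edgeR adjusted p = 0.993). In Stop-Cas9-GFP neurons the control of 6 members other than Cdh18 lay within the range of the KO libraries, and that of Cdh18, at 11.95 CPM, lay below its KO range of 12.9 to 18.0 (edgeR adjusted p = 1.00).

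In Trim28-flox neurons the smallest overlap was that of Hecw2, at 51.1 to 53.9 CPM in the libraries labelled control and 53.8 to 77.8 in those labelled KO (log2 fold change 0.35 ± 0.12, n = 4 each, edgeR adjusted p = 0.971). Tmem132d was at 1.82 to 7.08 CPM and 4.94 to 17.3 (log2 fold change 0.87 ± 0.46, edgeR adjusted p = 0.971), and its highest library held 361 counts against 89 to 147 in the other 3 labelled KO. Pde10a was at 1121 to 2020 CPM and 1137 to 2745 (edgeR adjusted p = 0.971).

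Relatives of the members were read from lists of their families, to be held against the 7.18% of all genes called in excitatory nuclei. Of the 3-O-sulfotransferases, Hs3st5 was the 1 of 5 tested that passed the edgeR test in excitatory nuclei, lower in KO (log2 fold change -0.87 ± 0.12, adjusted p = 0.0154). Of 10 type II cadherins, Cdh9 was lower (-1.92 ± 0.37, edgeR adjusted p = 0.0324) and Cdh22 higher (0.69 ± 0.14, edgeR adjusted p = 0.0371). Of 15 genes of the sarcoglycan and dystrophin complex, Utrn, which encodes the dystrophin relative utrophin, was lower (-0.91 ± 0.13, edgeR adjusted p = 0.0170), as was Sgcd, delta-sarcoglycan (-0.62 ± 0.11, edgeR adjusted p = 0.0289). The HECT ligase Wwp1 (-0.42, 1 of 8) and the phosphodiesterase Pde8b (-0.57, 1 of 17) were lower.

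Of 40 synaptic adhesion genes, Cntnap5b (-1.03 ± 0.13, edgeR adjusted p = 0.0124) and the receptor phosphatase Ptprt (-0.64 ± 0.12, edgeR adjusted p = 0.0320) were lower in excitatory nuclei, 2 of 40 and thus a smaller share than the 7.18% of all genes. With counts this small, no list is set apart from all genes. No relative of Tmem132d (0 of 4, with Tmem132b at -0.50 and edgeR adjusted p = 0.0543) or Pak7 (0 of 4, with Pak1 at 0.43 and edgeR adjusted p = 0.0765) passed in excitatory nuclei. The median log2 fold change of the 8 lists ran from -0.52 for sulfotransferases to 0.12 for p21-activated kinases, against 0.01 over all genes. In the bulk cortex 0 genes of these lists were called. In astrocytes 4 of 34 synaptic adhesion genes were called lower by edgeR, among them Ptprd (-0.87), Cadm1 (-0.74) and Cadm2 (-0.70). There 2.26% of all genes were called, and the phosphodiesterase Pde8a was called higher (0.97). In oligodendrocytes 4 of 30 synaptic adhesion genes were called lower, among them Tenm4 (-1.78), Cntnap2 (-1.54) and Nrxn3 (-1.32). There 2.98% of all genes were called, and Tmem132b (-1.29) and Cdh10 (-0.97) were also called lower. In OPCs Cntnap2 (-1.76) was called lower, 1 of 35. Microglia had a median log2 fold change of -0.84 over 24 synaptic adhesion genes with 0 called. The part of the drift with gene span in these values of glia was not tested.

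The levels of the members across 32 sums, of 4 animals by 8 classes or subtypes, tracked those of other genes. Hs3st4 was most like Col12a1 and Htr1f (Pearson r = 0.92 for both, over 10375 genes of at least 10 CPM), and Cdh18 most like Grm8 (0.96) and Scai (0.91). Tmem132d was most like Tmem132b and Myo5a (0.96 each), Hecw2 like Ank3 and Pak7 (0.96 each), and Pak7 like Pex5l and Hecw2 (0.96 each). Sgcz was most like Dpp10 and Csmd1 (0.99 each) and Pde10a like Ptprn2 and Hivep2 (0.96 each). The sums share animals, libraries and, for the layer subtypes, nuclei with the excitatory class, so these values describe likeness only.

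The members' spans hold 4752 annotated copies of transposable elements, the sequences that Trim28 is known to silence, from 379 in Pak7 to 1136 in Sgcz. None of these copies had enough reads to be tested in the Emx1-Cre cortex, where 2.73% of 13997 tested copies were called. One was tested in NPCs, an Lx2 copy at chr17:8539812-8540840 inside Pde10a on the same strand, with 27 reads over the controls and 58 over the 6 KO libraries (log2 fold change -0.25 ± 0.65, edgeR adjusted p = 1.00), where 0.55% of 35091 copies were called.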

How the data were processed

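The authors aligned bulk reads with STAR 2.6.0 and counted exonic reads per gene with featureCounts (Subread 1.6.3, GENCODE on GRCm38), and they deposited raw counts. Nuclei came as UMI counts, made by the authors in Cell Ranger 3.0 against unspliced transcripts, so introns count. Raw counts of single transposable element copies in the Emx1-Cre cortex and NPCs, and gene counts of TEtranscripts, were also deposited. CUT&RUN signal was not used here, and 24 sample columns of the element table were not used. Bowtie2 2.3.4.2 is also named in the submitters' processing notes.

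Bulk counts were tested per experiment by edgeR 4.0.16 (TMM factors, filterByExpr, quasi-likelihood, Benjamini-Hochberg adjustment), with a call at an adjusted p under 0.05 and an absolute log2 fold change over 0.5. Nuclei within 3 median absolute deviations of the median of detected genes in their library were clustered without the members (Seurat 5.3.0, 2000 variable genes, 20 components, resolution 0.1) and named from markers. UMIs were summed per animal and class or subtype with at least 50 nuclei per animal and tested by edgeR, with a call at an adjusted p under 0.05. No doublet caller was run, and an alternative removed nuclei with markers of other classes. Wilson intervals of shares and exact intervals of UMI ratios (95%) cover counting error only. Gene fits of the cortex, NPCs, Cas9-GFP and Trim28-flox neurons and excitatory and astrocyte nuclei were checked on simulated data. So were 1 fit with an animal left out and the class difference, but not the fit of element copies. Changes of log2 0.5 were found in 0% (class difference) to 32.3% (NPCs) of cases, with 3.57% in excitatory nuclei. Changes of log2 1 were found in 10.9% (class difference) to 100% (Trim28-flox neurons), so a gene not called may still differ. DESeq2 1.42.0, other factors and filters, TEtranscripts counts, other subtype rules and left-out samples were alternatives.

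The members and the family and marker lists were chosen with earlier results of these data known. Named genes were the members, Trim28, the markers, the called genes of each family list (otherwise a relative of high level), and the 2 genes most correlated with each member (log2 CPM, prior count 2). Some marker genes are not reported here.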

Additional observations from a re-analysis of the deposited data

Results flagged for a closer look

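Over 39 sets of values, each of 1 gene in 1 group of 4 or 6 libraries, 2 had a library far from the others, and chance alone gives about 1 such set in 20. Hecw2 was at 118 CPM in Cas9-GFP KO library 4, against 107 to 109 in the other 3. Tmem132d was at 23.0 CPM in Stop-Cas9-GFP KO library 1, against 11.9 to 12.7 in the other 3.

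Excitatory nuclei, where the members were chosen, were left out of the next comparison. For Hecw2 and Pde10a, both KO animals lay above both controls in 1 of the remaining classes of nuclei and below them in another, although of these values only that of Pde10a in astrocytes was called. These pairs of classes were picked because their directions were opposite, so the differences and their p-values are given as a description and support nothing. For Pde10a, the log2 ratio in astrocytes exceeded that in oligodendrocytes by 3.14 (3.05 ± 0.34, SE, in the edgeR interaction term, adjusted p = 2.31e-06) and that in OPCs exceeded it by 1.33 (1.27 in the edgeR interaction term, adjusted p = 0.0337), and its level in oligodendrocytes was near that in microglia. The Hecw2 log2 ratio in oligodendrocytes exceeded that in inhibitory nuclei by 0.227 and that in OPCs by 0.293, and in neither pair did the edgeR interaction term pass (adjusted p = 0.742 and 0.888). The Hecw2 log2 ratio in oligodendrocytes exceeded that in microglia by 2.00 (1.81 in the edgeR interaction term, adjusted p = 0.0239, which passed), on 42 and 43 UMIs of Hecw2 in control microglia and 16 and 1 in KO. In microglia the log2 ratios of Cdh18, Sgcz and Pak7 were -1.36, -1.35 and -1.57, and the part of free RNA was not tested.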

How the results depend on the processing

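Every change of call among the members outside excitatory nuclei is named with its result above, apart from Sgcz in astrocytes, which also passed without nuclei with other classes' markers (edgeR adjusted p = 0.0361) and without the 5% of nuclei with most UMIs (0.0499), and Cdh18 in oligodendrocytes, which passed without control 64 (0.00922). The alternative without those 5% was chosen after seeing the data. Genes called under DESeq2 numbered 150 in NPCs (32 in the edgeR test), 25 in Cas9-GFP (0), 1 in Stop-Cas9-GFP (0) and 37 in Trim28-flox neurons (7), and 1769 in excitatory (1166), 18 in inhibitory (0), 109 in astrocyte (233), 92 in oligodendrocyte (240) and 10 in OPC nuclei (20). With no filter on low counts they numbered 131, 18 and 19 in Cas9-GFP, Stop-Cas9-GFP and Trim28-flox neurons and 546 in cortex (216), and with TEtranscripts counts 4, 1 and 11 in the 3 neuron experiments. Without nuclei with other classes' markers, which removed 5803 of 8174 excitatory nuclei, 624 excitatory, 2 inhibitory and 113 oligodendrocyte genes were called. OPC nuclei gave 13 with no filter on nuclei and 9 without the 5% with most UMIs. With the NPC number series as a replicate block, 136 genes were called and 0 members changed call. Controls and KO of 1 series deviated together (r = 0.882 over 11639 genes, not independent), but with fewer than 3 series this shows a shared number and no more.

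The KO minus control share of upper-layer nuclei was 5.51 percentage points, and it was 12.2 with clusters. Under the stricter marker rule (at least 5 UMIs and 4 times the next panel's scaled value) it was -0.0858, so its direction rests on the definition. At the control mix, Hs3st4 was -0.22 and Cdh18 -0.73 with clusters, and Cdh18 was -0.98 without the 5% of nuclei with most UMIs. The cause of these moves was not tested.

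With each sample left out, genes called ranged from 2 to 58 in NPCs, 0 to 7 in Cas9-GFP neurons, 104 to 344 in cortex, 86 to 2477 in excitatory, 13 to 2884 in inhibitory, 65 to 980 in astrocyte, 94 to 683 in oligodendrocyte, 19 to 150 in OPC and 0 to 61 in microglia nuclei, and transposable element copies from 50 to 265 in NPCs. Signs turned for uncalled members with ranges (log2) of -1.01 to 0.73 for Hecw2 and -0.12 to 0.20 for Pde10a in NPCs, and in Cas9-GFP neurons of -0.11 to 0.095 for Cdh18, -0.33 to 0.21 for Tmem132d, -0.12 to 0.11 for Pak7 and -0.062 to 0.027 for Pde10a. In Stop-Cas9-GFP neurons they were -0.067 to 0.31 for Tmem132d, -0.020 to 0.16 for Hecw2 and -0.17 to 0.15 for Sgcz, and in Trim28-flox neurons -0.20 to 0.031 for Sgcz and -0.028 to 0.35 for Pak7. In nuclei they were -0.58 to 0.052 for Hs3st4 in inhibitory, -1.03 to 0.12 for Cdh18, -1.70 to 0.079 for Hecw2 and -1.33 to 0.32 for Pak7 in astrocyte, and -1.03 to 0.19 for Pde10a in microglia nuclei. Depth limits Trim28 in nuclei, Sgcz in bulk cortex and Hs3st4 in glia, each on few counts.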
